A study of Mus musculus with 12 samples.

Results

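The 10 genes described here belong to the bone morphogenetic protein (BMP) pathway and were measured in cultured mouse neural stem cells (NSCs). They were the ligands Bmp2, Bmp4 and Bmp7, the type I receptors Bmpr1a and Bmpr1b, the secreted antagonist Nog (noggin) and the target genes Id1, Id2, Id3 and Id4. They were chosen by name from the 45792 genes in the files, and all 10 were among the 15706 genes that passed a filter on low counts. The study asked how loss of Ncf1, a cytosolic subunit of the NADPH oxidase Nox2, and recombinant Igfbp2 act on NSCs. RNA came from 12 libraries, 4 each of untreated WT NSCs, untreated Ncf1-/- NSCs and Ncf1-/- NSCs given mouse recombinant Igfbp2. NSCs were grown from the forebrain of newborn pups, WT C57BL/6J or Ncf1-/- on that background, in serum-free medium with EGF, FGF, insulin, transferrin, selenite and B-27. By the methods each pup's cells were grown separately. Igfbp2 was added 48 h after plating, at 100 ng/ml by the labels and at a lower dose by the study's methods, and RNA was taken 48 h later. Ncf1 is lost in every cell of the donor animal, so the 2 genotypes differ from before the cultures were made.

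BMP ligands are secreted dimers that bring type I and type II receptors together at the cell surface. The type I receptor kinases then phosphorylate the transcription factors Smad1, Smad5 and Smad9, which enter the nucleus with Smad4 and switch on target genes, the Id genes foremost. Id proteins have a helix-loop-helix domain but no DNA-binding region, and they hold E proteins away from proneural and oligodendroglial bHLH partners. In the postnatal forebrain BMP signalling is known for promoting astrocytes and quiescence of NSCs and for restraining neurons and oligodendrocytes, and noggin is known for opposing it near the ventricle.

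A pair of features of the libraries stood beside the results. First, the WT cultures held more RNA of mature glia. The summed level of 7 oligodendrocyte markers was 1573 to 9338 CPM (counts scaled to a common library size, here by the TMM method) in WT, 205 to 261 in Ncf1-/- and 215 to 289 in Igfbp2-treated NSCs, and that of 5 astrocyte markers was 5712 to 9667, 1107 to 1633 and 858 to 1376 CPM. The most abundant of these markers were Mbp, with means of 2448, 2.78 and 7.86 CPM in the 3 groups, and Gfap, with 5474, 760 and 536 CPM. For 7 neural stem cell markers the sum and the single genes differed in direction. The sum, carried by Vim, Fabp7 and Nes, was 2340 to 3554 CPM in WT replicates 1, 2 and 4 and 7431 to 8188 CPM in the Ncf1-/- libraries of either treatment, but between Ncf1-/- and WT 4 of the 7 were called lower (Sox2 -0.97, Pax6 -0.43, Prom1 -1.34 and Msi1 -0.94 on the log2 scale), Nes and Fabp7 were called higher, Vim did not pass the test, and the median was -0.43. Of all genes tested, 28.2% were called lower and 28.9% higher in that comparison. WT replicate 3 stood apart, with the lowest oligodendrocyte sum, 1573 CPM, and a neural stem cell marker sum of 7827 CPM. Neuron markers, led by Map2, summed to 596 to 769 CPM in WT, 482 to 547 in Ncf1-/- and 432 to 459 in treated NSCs, ranges that did not overlap. Between Ncf1-/- and WT 4 of the 6 were called lower, where 28.2% of all genes were. Between treated and untreated NSCs 2 were called lower, Dcx (-0.83) and Tubb3 (-0.61), where 10.7% of all genes were. That last share depended on the scaling, with 1685 genes lower by TMM and 5258 by library totals. Of the 5 microglia markers, 3 had at most 3 counts in every library and the sum, mostly P2ry12, was 0.445 to 1.45 CPM. Endothelial markers, led by Kdr, summed to 2.08 to 6.04 CPM, with Cdh5 and Tie1 at 3 or fewer counts throughout. The mural and mesenchymal list summed to 10.8 to 24.6 CPM in WT, 11.5 to 14.6 in Ncf1-/- and 24 to 27.9 in treated NSCs, but its make-up differed: Pdgfrb went from 13.5 CPM in WT to 0.315 in Ncf1-/- and 1.31 in treated NSCs, whereas Acta2, the most abundant over all libraries, went from 0.873 to 6.14 and 13.3 CPM, and Col1a1, Col1a2 and Col3a1 were also called higher in Ncf1-/- NSCs than in WT. The ependymal list, led by Foxj1, summed to 13.6 to 56.2, 30.2 to 37 and 55 to 78.1 CPM. In such bulk cultures fewer cells of a type and less RNA per cell cannot be told apart.

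Second, 4 Y-linked genes, led by Kdm5d, summed to 107 to 118 CPM in WT replicates 1 to 3 and 105 to 116 CPM in the untreated Ncf1-/- libraries, but to 6.46 CPM in WT replicate 4 and 7.79 to 9.18 CPM in the 4 treated libraries. Xist read 3.87 to 5.22 CPM in WT replicates 1 to 3, 291 CPM in WT replicate 4, 72.3 to 87.8 CPM in untreated and 166 to 275 CPM in treated Ncf1-/- libraries. The methods describe treated and untreated cultures of the same pups, and the Y-linked levels went against that. Igfbp2 and the sex make-up of the cultures therefore cannot be told apart in the treatment comparison. The treated libraries also differed in these genes from WT replicates 1 to 3, so sex make-up enters the comparison of treated Ncf1-/- with WT as well. The untreated Ncf1-/- libraries differed from every WT library in Xist. Sex make-up therefore also enters the comparison of untreated Ncf1-/- with WT. A second sample sheet supplied with the study lists the library of WT replicate 4 under another treatment, so results against WT were also computed without it. Ncf1 itself had 2 to 7 counts in WT, 2 to 4 in untreated and 1 in each treated library, too few to check the genotype. The libraries held 18201622 to 34086554 expected counts.

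Ncf1-/- NSCs had less RNA of 8 of the 10 genes and more of 1. By edgeR's quasi-likelihood test (adjusted p below 0.05 over all genes tested), 9 of 10 were called between Ncf1-/- and WT NSCs, and in these 9 the libraries of the 2 groups did not overlap. The background was high, since 57.2% of all genes tested were called in this comparison, 28.9% higher and 28.2% lower, and 51.2% had groups that did not overlap. By library totals 6024 genes were called higher and 3159 lower, against 4545 and 4433 by TMM, and 9 of the 10 were called in both. The 10 log2 fold changes had a median of -1.39, against 0.02 over all genes. Without WT replicate 3, and without WT replicate 4, 9 of 10 were again called. The 2 groups also differed in Xist, and the part of sex make-up in these values was not tested.

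Bmp4, the ligand of the family best known for driving NSCs to astrocytes, lay on the minus strand of chromosome 14 (GRCm38, chr14:46383520-46390669) and showed the widest difference of the 10. It read 74.9, 63.6, 27.6 and 67.3 CPM in WT replicates 1 to 4 and 0.784, 0.581, 0.795 and 0.261 CPM in the untreated Ncf1-/- libraries. Every WT library was far above every Ncf1-/- library, and WT replicate 3 was the lowest of its group. The log2 fold change was -6.60 (SE 0.37, adjusted p = 4.2e-08), which left Bmp4 at 1.03% of WT. Behind the Ncf1-/- values stood 7 to 18 counts per library, above the floor of 3 counts, against 962 to 1646 in WT. Without WT replicate 3 the log2 fold change was -6.84 (SE 0.20), and without WT replicate 4 it was -6.56 (SE 0.39).

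Bmp7, a ligand that pairs with Bmp2 or Bmp4 in heterodimers, moved the other way (minus strand, chr2:172868012-172940321). It read 7.55, 9.18, 7.17 and 9.35 CPM in WT and 32.3, 37.9, 36.9 and 40.9 CPM in Ncf1-/- NSCs. The 4 Ncf1-/- libraries all lay above the 4 WT libraries, at 4.47 times the WT level (log2 fold change 2.16, SE 0.14, adjusted p = 1.17e-07). Bmp7 was the only one of the 10 that was called higher. Bmp2 (plus strand, chr2:133552159-133562885) stayed near the limit of detection, at 9 to 26 counts in every library, with 0.459 to 1.03 CPM in WT and 0.484 to 1 CPM in the untreated Ncf1-/- libraries. The difference, 0.24 on the log2 scale (SE 0.36, adjusted p = 0.602), did not pass the test and had an approximate 95% interval of -0.47 to 0.95.

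The make-up of the ligand RNA differed between the genotypes. Per length, in TPM (the share of transcripts after correction for length), Bmp4 made up 88.7 to 95% of the summed TPM of the 3 ligands in WT libraries and 1.15 to 4.58% in Ncf1-/- libraries, while Bmp7 went from 4.61 to 10.6% to 92.9 to 96.5%. The summed ligand TPM was 26.5 ± 7.34 (SD, n = 4) in WT, 8.69 ± 1.38 in Ncf1-/- and 8.65 ± 2.73 in treated NSCs. The highest sum among the Ncf1-/- libraries of either treatment, 12.3 TPM in a treated one, was below that of the lowest WT library, 15.8 TPM.

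Noggin, which binds Bmp4, Bmp2 and, less tightly, Bmp7 and keeps them from their receptors, was lower together with Bmp4. Nog (minus strand, chr11:89300638-89302332) read 11.3, 15, 4.76 and 16.6 CPM in WT and 0.653, 0.387, 0.353 and 0.56 CPM in Ncf1-/- NSCs. WT replicate 3 was again the lowest WT library, still well above all Ncf1-/- libraries. Nog fell by 4.57 on the log2 scale (SE 0.44, adjusted p = 2.26e-06), to 4.21% of WT, with 8 to 15 counts per Ncf1-/- library. The value was -4.84 (SE 0.30) without WT replicate 3 and -4.41 (SE 0.44) without WT replicate 4. In WT replicate 3, the library with the lowest oligodendrocyte marker sum, both Bmp4 and Nog were lowest; the part of oligodendrocyte RNA in these differences was not tested.

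**Figure D1:**
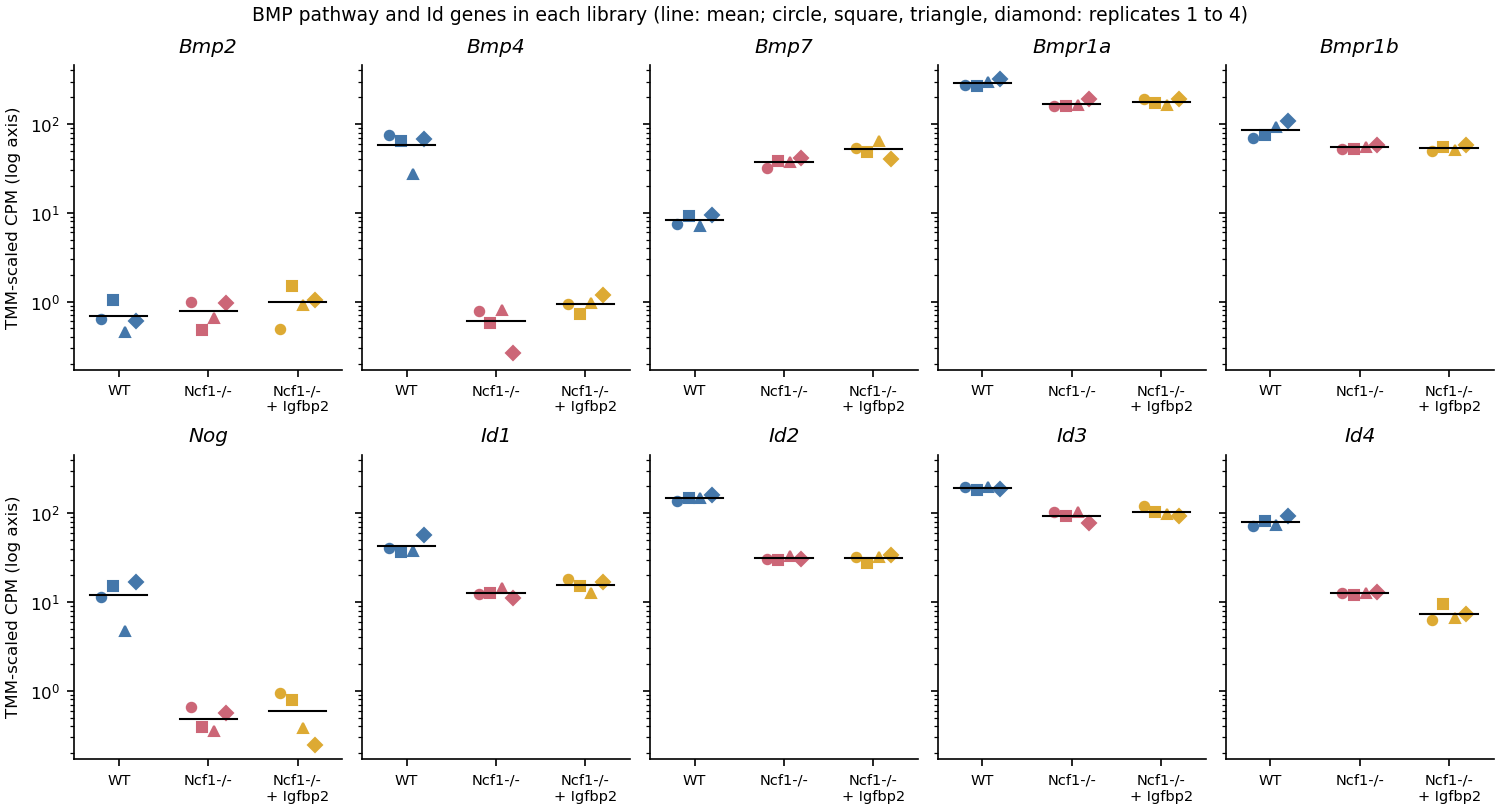
TMM-scaled CPM on a log axis for the 10 genes in each of the 12 libraries, by group, with replicates 1 to 4 as circle, square, triangle and diamond and the group mean as a line. Bmp4 and Nog drop from means of 58.4 and 11.9 CPM in WT to below 1 CPM in both Ncf1-/- groups, Bmp7 rises from 8.31 to 37 CPM, and Bmp2 stays near 1 CPM throughout.

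Both type I receptors were lower in Ncf1-/- NSCs, by less than the ligand and the antagonist. Bmpr1a (minus strand, chr14:34410734-34503341), the widely expressed receptor, read 270 to 320 CPM in WT and 158 to 190 CPM in Ncf1-/- libraries, and it fell by 0.79 on the log2 scale (SE 0.09, adjusted p = 1.08e-05). Bmpr1b (minus strand, chr3:141837136-142169425), which in the forebrain is found mostly in neural cells, read 69.3 to 107 CPM in WT and 51.7 to 58.4 CPM in Ncf1-/- libraries, and it fell by 0.66 (SE 0.12, adjusted p = 0.000351). Neither receptor's groups overlapped. Per length, Bmpr1a made up 72.3 to 76.8% of the summed TPM of the pair in WT, 71.8 to 74.7% in Ncf1-/- and 73.4 to 77.5% in treated NSCs, so the balance between the 2 receptors was nearly the same in all groups. On the study's own kind of test, applied to TPM, Bmpr1b was not called (log2 fold change -0.70, adjusted p = 0.117).

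All 4 Id genes were lower in Ncf1-/- NSCs, to unequal extents. Id4 (plus strand, chr13:48261228-48266026), known for keeping NSCs quiescent and for holding back oligodendrocyte differentiation, read 72.3, 82.7, 73.8 and 92.3 CPM in WT and 12.5, 12.1, 12.5 and 12.9 CPM in Ncf1-/- NSCs. The Ncf1-/- libraries lay within 1 CPM of each other and far below WT. Id4 fell by 2.68 on the log2 scale (SE 0.12, adjusted p = 1.34e-08), to 15.6% of WT. Id2 (minus strand, chr12:25093799-25097140), an inhibitor of neuronal and oligodendroglial differentiation, read 138, 148, 150 and 160 CPM in WT and 30.9, 29.7, 32.9 and 30.7 CPM in Ncf1-/- NSCs. It fell by 2.26 (SE 0.08, adjusted p = 2.7e-09), to 20.8% of WT, with a narrow spread in both groups.

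Id1 (plus strand, chr2:152736251-152737410), a marker of stem-like astrocytes of the ventricular wall, read 40.4, 36.8, 37.1 and 56.3 CPM in WT and 12.2, 12.6, 14.4 and 11.2 CPM in Ncf1-/- NSCs. WT replicate 4 was the highest of its group. Id1 fell by 1.76 (SE 0.15, adjusted p = 1e-06), and the value without WT replicate 4 was -1.63 (SE 0.12). Id3 (plus strand, chr4:136143497-136145755), which often acts together with Id1, changed least among the 4. It read 198, 183, 197 and 185 CPM in WT and 102, 92, 104 and 76.8 CPM in Ncf1-/- NSCs, and it fell by 1.03 (SE 0.11, adjusted p = 4.31e-06), to 49.1% of WT. Unlike Bmp4 and Nog, none of the 4 Id genes was set apart in WT replicate 3, where Id2, Id3 and Id4 lay between other WT libraries. That library was low in oligodendrocyte markers only, and its astrocyte marker sum, 9667 CPM, was the highest of all. The part of astrocyte or other glial RNA in the falls of the Id genes was not tested.

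**Figure D2:**
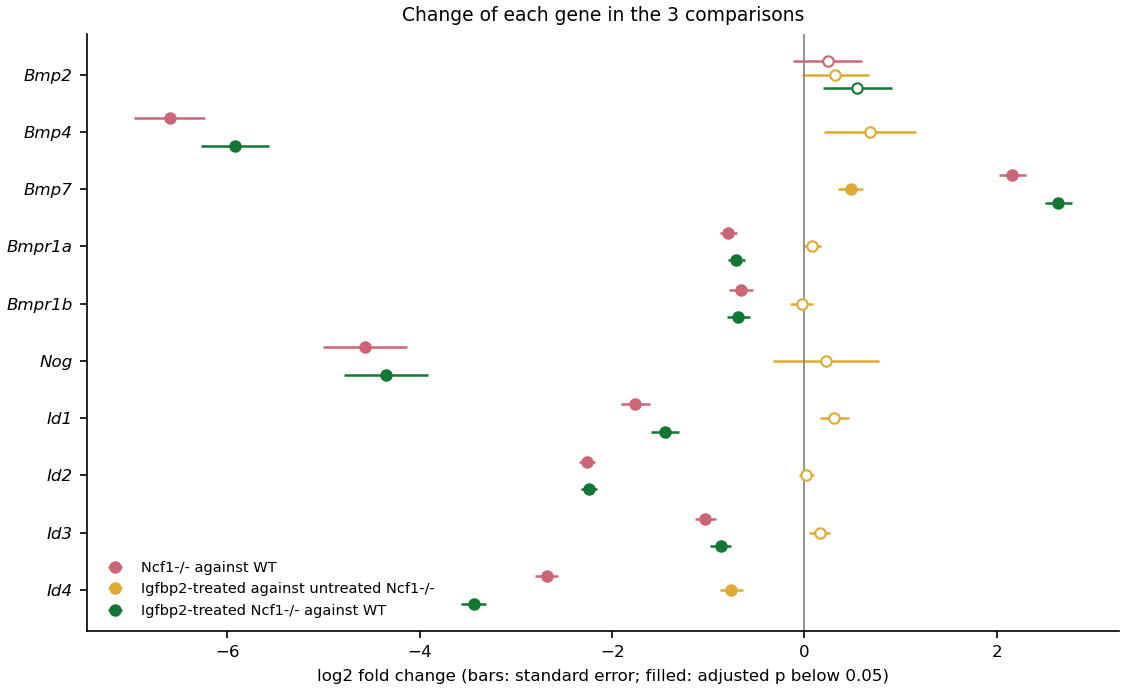
Log2 fold changes of the 10 genes from edgeR in the 3 comparisons, with standard errors as bars and filled points where the adjusted p was below 0.05. Against WT, both Ncf1-/- groups show 8 filled genes below 0, Bmp7 filled above 0 and Bmp2 open above 0. In untreated NSCs the values run from -6.60 for Bmp4 to 2.16 for Bmp7. Between treated and untreated NSCs Id4 and Bmp7 are filled.

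Because the Id genes moved together, their promoters are shown for the 3 of them with an entry in RefSeq's promoter table (GRCm38.p6), each 300 bases around an annotated start, 5′ to 3′ on the gene's strand. Of the 10 genes, 6 had at least 1 such window, 8 windows in all. Capitals mark 2 motifs that Smad proteins are known to bind, the GC-rich element GGCGCC, which reads the same on both strands, and CAGAC, searched together with its reverse complement GTCTG. The motifs do not overlap in these windows.
Id2 (minus strand, chr12:25096043-25096342): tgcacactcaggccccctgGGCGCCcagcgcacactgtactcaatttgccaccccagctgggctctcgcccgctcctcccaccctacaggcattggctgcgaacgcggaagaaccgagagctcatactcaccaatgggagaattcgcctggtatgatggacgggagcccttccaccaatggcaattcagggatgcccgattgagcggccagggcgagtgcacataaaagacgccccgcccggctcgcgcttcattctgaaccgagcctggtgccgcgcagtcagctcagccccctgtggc
Id3 (plus strand, chr4:136143572-136143871): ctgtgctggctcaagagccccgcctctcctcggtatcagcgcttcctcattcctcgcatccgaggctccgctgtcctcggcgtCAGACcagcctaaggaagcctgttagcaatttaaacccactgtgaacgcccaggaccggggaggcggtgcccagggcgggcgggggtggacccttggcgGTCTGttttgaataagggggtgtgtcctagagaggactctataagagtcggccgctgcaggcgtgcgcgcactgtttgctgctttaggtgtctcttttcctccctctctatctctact
Id4 (plus strand, chr13:48260866-48261165): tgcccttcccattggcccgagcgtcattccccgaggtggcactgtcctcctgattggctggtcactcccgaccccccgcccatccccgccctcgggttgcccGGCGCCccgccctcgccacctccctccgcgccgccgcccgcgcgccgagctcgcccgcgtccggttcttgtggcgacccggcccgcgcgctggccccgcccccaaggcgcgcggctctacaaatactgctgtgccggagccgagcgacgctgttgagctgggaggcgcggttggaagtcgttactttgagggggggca
Over the windows of the 6 genes, GGCGCC occurred in those of Id2, Id4 and Bmpr1a, and not in those of Id3, Bmpr1b and Bmp4, the gene with the widest fall of all. CAGAC, counting both strands, occurred in 3 of the 8 windows, those being the window of Id3, which held it 2 times, and windows of Bmpr1b. The window of Bmp4 held neither motif. GGCGCC was in 11.9% and CAGAC in 49.6% of all 32851 promoter windows in the table, so that a match is a description of the letters only. The GC content of the 3 windows was 63.3% for Id2, 60% for Id3 and 73.3% for Id4.

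The unequal falls changed the proportions among the Id genes. Per length, Id3 held 37.8 to 45% of the summed Id TPM in WT libraries and 58.2 to 64.6% in Ncf1-/- libraries, whereas Id2 went from 30.5 to 33.1% to 19 to 22.7% and Id4 from 11.8 to 13.7% to 5.44 to 7.04%. Id1 held 11.5 to 16.3% in WT and 10.7 to 12.1% in Ncf1-/- NSCs, ranges that overlapped. The sum of the 4 was 305 ± 40.8 TPM (SD, n = 4) in WT, 105 ± 5.46 in Ncf1-/- and 81.1 ± 11.8 in treated NSCs.

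**Figure D3:**
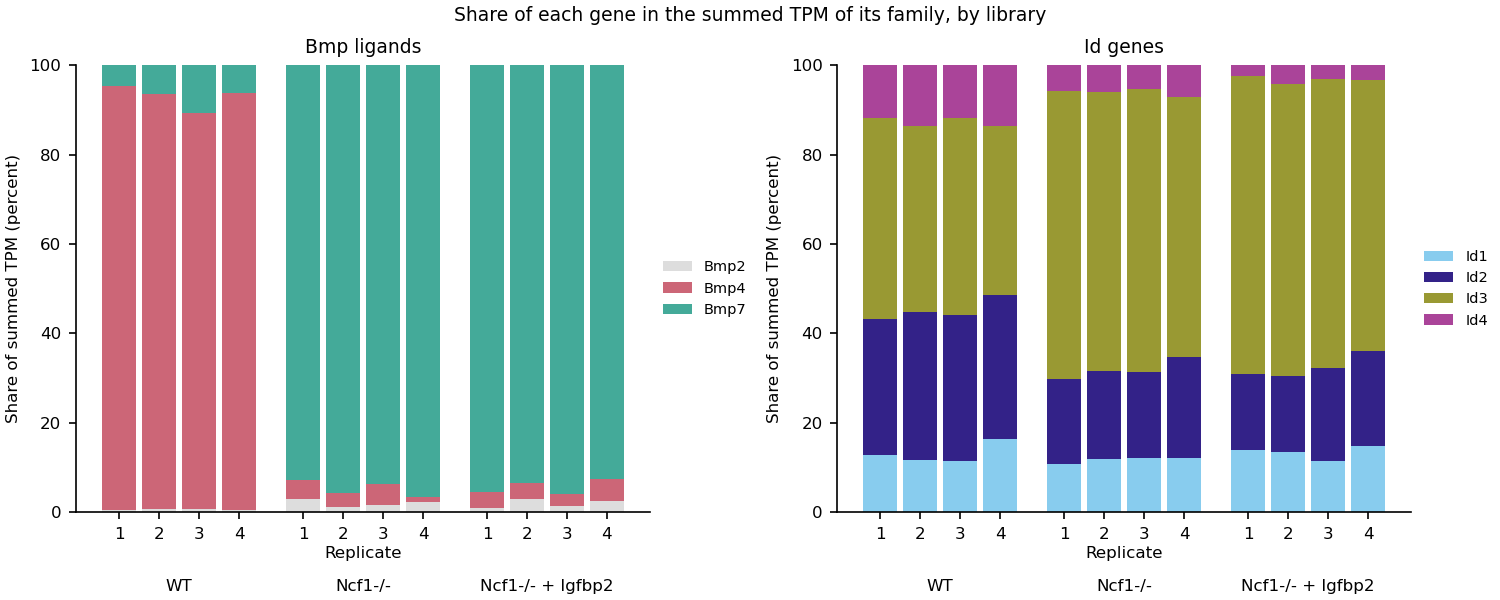
Stacked bars of the percent share of each gene in the summed TPM of the 3 Bmp ligands (left) and of the 4 Id genes (right), 1 bar per library. Bmp4 fills 88.7 to 95% of the ligand bars in WT and Bmp7 over 92% in every Ncf1-/- bar, and the Id3 share rises from at most 45% in WT to at least 58.2%.

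In the order of levels within a group, measured in TPM, Id3 was first in all 3 groups, at 128 ± 15.5 in WT, 65.1 ± 4.1 in Ncf1-/- and 52.3 ± 8.96 in treated NSCs (SD, n = 4). In WT it was followed by Id2 with 98.3, Bmpr1a with 55.8, Id1 with 40, Id4 with 39, Bmp4 with 24.6, Bmpr1b with 18.5, Nog with 5.55, Bmp7 with 1.71 and Bmp2 with 0.145 TPM. The WT libraries of Bmpr1a and Id1, of Id1 and Id4, and of Bmp4 and Bmpr1b overlapped, and the other neighbours did not. In Ncf1-/- NSCs the order was Id3, Bmpr1a with 31.7, Id2 with 21.2, Id1 with 12.2, Bmpr1b with 11.4, Bmp7 with 8.25, Id4 with 6.3, Bmp4 with 0.27, Nog with 0.24 and Bmp2 with 0.172 TPM. Here Id1 and Bmpr1b, Bmp7 and Id4, and the last 3 genes overlapped with their neighbours. Bmp7 moved from the ninth place to the sixth and Id4 from the fifth to the seventh. In treated NSCs the order was that of untreated Ncf1-/- NSCs, with overlap between Id1 and Bmpr1b, Bmpr1b and Bmp7, and among Bmp4, Nog and Bmp2.

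For each Id gene, the 3 genes with the most similar pattern were sought among 11164 genes whose mean reached 5 CPM, as the smallest root mean square difference of centred log2 CPM over the 12 libraries. Next to Id1 lay Pcsk1n (0.138), Mgll (0.143) and Emp2 (0.154), and next to Id2 Eepd1 (0.166), Pygb (0.181) and Fbrsl1 (0.188). Next to Id3 lay Npdc1 (0.104), Mkrn1 (0.111) and Rab3il1 (0.125). Next to Id4 lay 5730559C18Rik (0.247), C4b (0.266) and Slc8a1 (0.286). These were chosen for likeness to Id4 over the same 12 libraries, treated ones included. Their lower means in treated than in untreated NSCs are therefore no separate finding (17.4 against 28.4 CPM for C4b, a complement component). For scale, the root mean square of the Id genes' own centred values was 0.783, 1.06, 0.474 and 1.48 in the order Id1 to Id4.

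Between Igfbp2-treated and untreated Ncf1-/- NSCs, 2 of the 10 genes were called, Id4 lower and Bmp7 higher, against a background of 25.0% of all genes tested (14.2% higher, 10.7% lower). The split of that background depended on the scaling, with 2238 genes higher and 1685 lower by TMM, 648 and 5258 by library totals, and 200 and 6154 by limma on log2(TPM + 1). The 10 log2 fold changes had a median of 0.19, against 0.04 over all genes. Id4 read 12.5, 12.1, 12.5 and 12.9 CPM in untreated and 6.31, 9.44, 6.55 and 7.27 CPM in treated Ncf1-/- libraries. All 4 treated libraries lay below all 4 untreated libraries, with 58.9% of the untreated level in the fit, and Id4 was the only one of the 10 whose groups did not overlap here, against 34.1% of all genes. It fell by 0.76 on the log2 scale (SE 0.12, adjusted p = 0.0017). Id4 was thus further from WT in the treated libraries, at 9.19% of the WT level, than in the untreated ones, at 15.6%. Both values rest on the same WT libraries, and the treated and untreated libraries also differed in sex make-up.

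Bmp7 read 32.3, 37.9, 36.9 and 40.9 CPM in untreated and 53.7, 48.5, 63.7 and 40.8 CPM in treated Ncf1-/- libraries. Treated replicate 4 lay just below the highest untreated library, so the groups overlapped. The log2 fold change was 0.48 (SE 0.13, adjusted p = 0.0198). This call was lost when untreated replicate 1 or 3 or treated replicate 1, 2 or 3 was left out (adjusted p = 0.051 to 0.0854) and with library totals (log2 fold change 0.21), and its direction turned on log2(TPM + 1) (-0.04). In TPM the mean levels were 8.25 ± 1.45 and 8.18 ± 2.68 (SD, n = 4).

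The other 8 genes did not pass the test between treatments. Id1 had 15.6 ± 2.36 CPM with and 12.6 ± 1.32 CPM without Igfbp2 (SD, n = 4; log2 fold change 0.31, SE 0.15, adjusted p = 0.153), Id3 had 104 ± 12.4 and 93.6 ± 12.4 CPM (0.16, SE 0.11, adjusted p = 0.297) and Id2 had 31.6 ± 2.73 and 31.1 ± 1.36 CPM (0.02, SE 0.08, adjusted p = 0.852). The approximate 95% interval for Id2 was -0.13 to 0.18, and its log2 fold change between the genotypes was -2.26. Bmp4, at 0.721 to 1.18 CPM with and 0.261 to 0.795 CPM without Igfbp2, had a log2 fold change of 0.68 (SE 0.48, adjusted p = 0.314), resting on 7 to 24 counts per library. Nog, at 0.245 to 0.941 and 0.353 to 0.653 CPM, had 0.22 (SE 0.55, adjusted p = 0.797), and Bmp2 had 0.32 (SE 0.35, adjusted p = 0.537). The intervals were wide, -0.26 to 1.62 for Bmp4 and -0.86 to 1.29 for Nog. They rest on low counts and on an estimate of the spread that all groups share, WT included. Over all genes tested, edgeR's coefficient of variation between libraries was 0.253 in WT, 0.122 in untreated and 0.131 in treated Ncf1-/- NSCs. The part of each in these widths was not tested. The receptors had intervals of -0.10 to 0.26 (Bmpr1a) and -0.26 to 0.20 (Bmpr1b).

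The scaling of the libraries moved the treatment comparison. Scaled by library totals alone, the median of all genes moved from 0.04 to -0.23, and on log2(TPM + 1) to -0.30. Taken relative to the median of all genes, Id4 stood at -0.80 with TMM, -0.80 with library totals and -0.71 on log2(TPM + 1), and Bmp7 at 0.44, 0.45 and 0.25. Id2 stood at -0.01, -0.01 and -0.15, although as an absolute change it was called lower with library totals (-0.25, adjusted p = 0.0398 by edgeR) and on log2(TPM + 1) (-0.44, adjusted p = 0.0267 by limma).

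**Figure D4:**
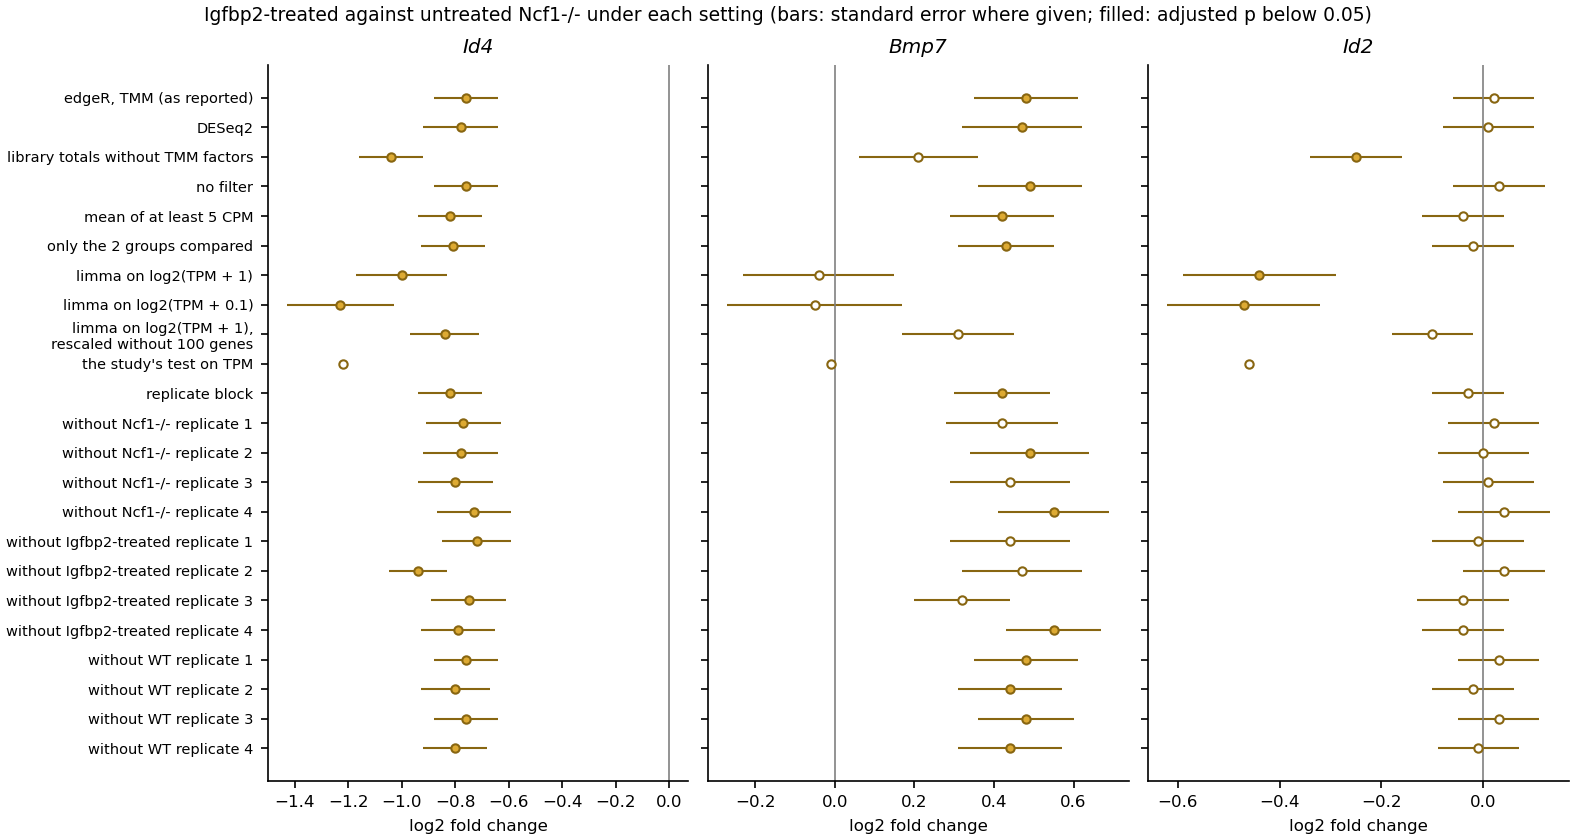
Log2 fold change between Igfbp2-treated and untreated Ncf1-/- NSCs for Id4, Bmp7 and Id2 under each setting, with standard errors where the test gives one and filled points where the adjusted p was below 0.05. Id4 lies between -1.23 and -0.72 throughout and is open only in the study's test on TPM, while Bmp7 reaches -0.05 and Id2 ranges from -0.47 to 0.04.

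Between Igfbp2-treated Ncf1-/- NSCs and WT, 9 of the 10 genes were called, 8 lower and Bmp7 higher, and their groups did not overlap. Of all genes tested, 62.4% were called, 31.6% higher and 30.8% lower, and 54.3% had groups without overlap. On log2(TPM + 1) 1969 were called higher and 6890 lower, against 4964 and 4837 by TMM. The log2 fold changes were -5.92 for Bmp4 (SE 0.35), -4.35 for Nog (SE 0.44), -3.44 for Id4 (SE 0.13), -2.24 for Id2 (SE 0.08), -1.45 for Id1 (SE 0.15), -0.87 for Id3 (SE 0.11), -0.71 for Bmpr1a (SE 0.09), -0.69 for Bmpr1b (SE 0.12) and 2.64 for Bmp7 (SE 0.14), with adjusted p of 0.000236 or less. Bmp2 had 0.55 (SE 0.36, adjusted p = 0.201). The same 9 genes were called without WT replicate 4. Sex make-up also differed between the treated libraries and WT replicates 1 to 3, and its part in these values was not tested.

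The rest of the pathway was read from 8 lists with 63 genes, of which 43 passed the filter. Among 11 other BMP ligands only Bmp3 and Bmp6 could be tested, and Bmp6, which fell by 3.23 from 2.52 to 0.259 CPM (SE 0.56, adjusted p = 0.000275), was the 1 called between Ncf1-/- and WT; it is named after its value was seen. Of 8 other receptors and co-receptors tested, 6 fell and 1 rose, where 28.2% of all genes were called lower and 28.9% higher; library totals gave 5 lower and 1 higher, and log2(TPM + 1) 5 lower and 0 higher. The largest fall among the more abundant was that of Rgma, a membrane-anchored BMP co-receptor, from 575 to 215 CPM (log2 fold change -1.42, SE 0.19, adjusted p = 2.87e-05). The list's median was -0.69. The fall of Bmpr2, the type II receptor, from 250 to 167 CPM (-0.58, adjusted p = 0.00974) was not called with library totals or on TPM and is named outside the rule.

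The signal transducers differed among themselves. Smad1 and Smad5, the main carriers of the BMP signal, were not called, with 52.5 and 49.3 CPM for Smad1 (log2 fold change -0.09, SE 0.11) and 155 and 165 CPM for Smad5 (0.09, SE 0.08) in WT and Ncf1-/- NSCs. Smad9, the third of them, fell by 2.62 from 11.9 to 1.92 CPM (SE 0.21, adjusted p = 6.25e-07). Smad4, the shared partner, fell by 0.38 (SE 0.08, adjusted p = 0.00103), a call that library totals did not give. The median of the 4 was -0.24, and library totals called 1 of them higher and 1 lower.

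Intracellular inhibitors of the pathway, several of which are themselves switched on by BMP, were mostly lower. Of 7 tested, 6 fell and 1 did not pass the test between Ncf1-/- and WT, where 28.2% of all genes were called lower, with a median of -1.07, and the counts were the same without WT replicate 3 and without WT replicate 4. Smad7, an inhibitory Smad that blocks the receptors, fell by 4.02 from 30.4 ± 13.5 CPM (SD, n = 4) to 1.86 CPM (SE 0.33, adjusted p = 6.5e-07). Its WT libraries ran from 13.3 to 45.2 CPM. As for Bmp4 and Nog, WT replicate 3 was the lowest WT library for Smad7, and also for Smad9 and Bmp6. The part of oligodendrocyte RNA in these falls was not tested. Smad6, the BMP-selective inhibitory Smad, fell by 1.72 from 3.41 to 1.02 CPM (SE 0.22) and is named outside the rule. The remaining one, Tob1, had a log2 fold change of -0.01.

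Of 10 other extracellular antagonists and modulators tested, 3 rose, 1 fell and 6 did not pass the test, where 57.2% of all genes were called and 28.9% were called higher. The median was 0.26, and without WT replicate 3 the count that rose was 6. The largest rise among the more abundant was that of Chrdl1, a chordin-like BMP antagonist, from 7.26 ± 4.27 CPM (SD, n = 4) in WT to 30.1 CPM (log2 fold change 2.02, SE 0.30, adjusted p = 7.09e-05). Bambi, a decoy receptor without kinase, rose by 1.02 from 2.78 to 5.67 CPM (SE 0.14), and Sostdc1 and Tll1 were the others called, all 3 named after their values were seen. Sostdc1 was at 3 or fewer counts in each WT library.

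Among 3 other BMP target transcription factors tested, Atoh8 and Msx1 fell and Hey1 rose between Ncf1-/- and WT. Of all genes, 57.2% were called in this comparison, 28.2% lower and 28.9% higher. Msx1, named outside the rule, rested on 14 to 20 counts per untreated Ncf1-/- library (log2 fold change -1.22, SE 0.44). Hey1, a Hes-related repressor, went from 75.4 to 118 CPM (log2 fold change 0.65, SE 0.19, adjusted p = 0.01), and Atoh8, named outside the rule, fell by 1.98 from 5.4 to 1.37 CPM (SE 0.25, adjusted p = 1.8e-05). The E proteins, the partners that Id proteins bind, moved little: Tcf4 fell by 0.31 from 451 to 363 CPM (SE 0.10, adjusted p = 0.0147; not called with library totals or on TPM), and Tcf3 and Tcf12 had log2 fold changes of 0.10 and 0.00. Of 6 neural bHLH factors tested, 3 rose and 3 fell, against the same shares of all genes. Hes1, a Notch-responsive repressor, rose by 2.41 from 5.28 to 29.2 CPM (SE 0.35, adjusted p = 6.62e-05), whereas Hes5, its Notch-responsive relative, fell by 1.23 from 147 to 62.7 CPM (SE 0.19, adjusted p = 0.000128).

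Between treated and untreated Ncf1-/- NSCs, 7 of the 43 tested genes of the 8 lists were called (16.3%, against 25.0% of all genes), 6 higher and 1 lower. This split turned with the scaling, to 1 higher and 7 lower with library totals and 0 higher and 7 lower on log2(TPM + 1), and without WT replicate 3 it was 13 and 1. Hes5 fell by 1.48 from 62.7 to 22.5 CPM (SE 0.20, adjusted p = 0.000869) and, like Id4, was called lower under each scaling tried. Acvr1, a type I receptor for Bmp7, rose by 0.52 from 12.5 to 17.9 CPM (SE 0.08, adjusted p = 0.00105), which was 0.00 on log2(TPM + 1). Nbl1, a secreted antagonist, had 0.62 (SE 0.14, adjusted p = 0.0088) with TMM and 0.08 on log2(TPM + 1). Ski, a repressor of Smad complexes, had 0.35 (SE 0.12, adjusted p = 0.0473) with TMM and -0.11 on log2(TPM + 1). The others called were Neo1, Rgmb and Tob1 (0.51, 0.40 and 0.31), named after their values were seen, and Rgmb and Tob1 also turned negative on log2(TPM + 1), at -0.06 and -0.15. The 4 Smad transducers did not pass the test, and the largest log2 fold change among them was that of Smad9, 0.57 (SE 0.22, adjusted p = 0.0757).

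**Figure D5:**
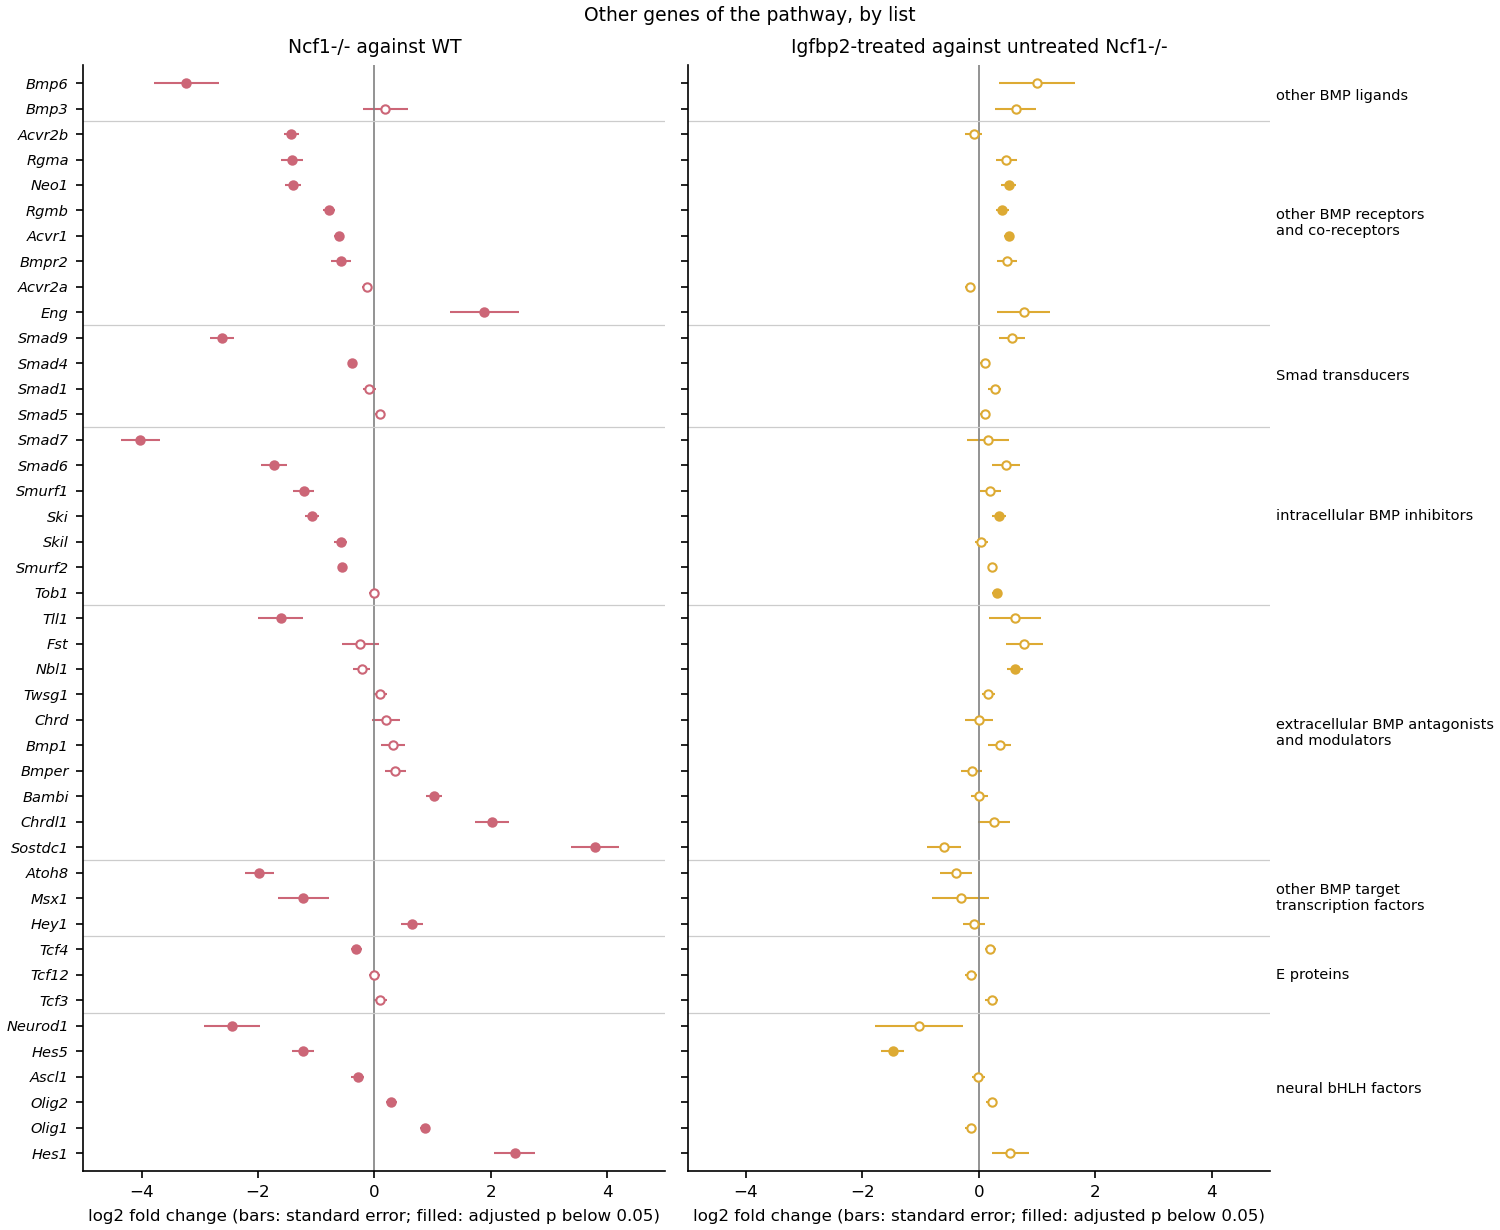
Log2 fold changes with standard errors for the 43 tested genes of the 8 lists, grouped by list, between Ncf1-/- and WT NSCs (left) and between Igfbp2-treated and untreated Ncf1-/- NSCs (right), filled where the adjusted p was below 0.05. On the left the inhibitors reach -4.02 at Smad7 and the antagonists spread to both sides of 0, and on the right the filled points lie within 0.62 of 0 except Hes5 at -1.48.

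Among the 10 genes, 3 share exon bases with genes on the other strand in GENCODE M21, and whether strand was used in counting is not given in the sources used here. Id4 overlaps A330033J07Rik, at means of 1.69, 0.658 and 0.377 CPM in WT, Ncf1-/- and treated NSCs, and Gm49291, not analysed here. Bmp4 overlaps Gm15217, at 0 to 6 counts per library, and Bmpr1a overlaps Gm17110, at 1 to 10 counts. These levels are small beside those of Id4 and Bmpr1a, and Gm15217 was at 0 in both Ncf1-/- groups.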

How the data were processed

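RNA of 12 NSC cultures was sequenced after ribosomal RNA depletion, with 1 library per culture. The authors mapped reads with Bowtie2 (GRCm38 in the submitters' processing notes) and, with RSEM, made an expected count per gene without normalization (versions not given in the sources used here). The TPM values deposited by the authors come from the same RSEM run and are relative to length and library. The FPKM columns deposited by the authors were left out. A merged table deposited by the authors gives a score that equals TPM times the number of transcripts of a gene for 100% of its values above 0 (within 1%), and only its gene symbols were used.

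Expected counts were rounded and fitted with edgeR 4.0.16 in R 4.3.3 (filterByExpr, TMM, quasi-likelihood test, 1 mean per group over all 12 libraries, Benjamini-Hochberg over 15706 genes). SE is the log2 fold change divided by the root of the F statistic. DESeq2 1.42.0 and limma 3.58.1 served as alternatives. Tests were checked on simulated counts with the same spread in all groups and few changed genes. That check does not cover the unequal spread of the groups, the many genes called or the dependence on scaling seen here. At 18201622 to 34086554 counts per library the median SE was 0.14 to 0.141. The members, lists and tests were chosen with earlier results of these data known. Besides the members, genes named are, per list and per comparison between genotypes or treatments, the called gene with the largest rise and fall at a mean of at least 5 CPM, the most abundant marker of each list, Ncf1 and the Y-linked genes; others are marked as named after their values were seen or outside the rule. The study matches treated and untreated libraries by pup, in the order of the labels, which the Y-linked levels went against; deviations of the matched libraries correlated at -0.0585 to 0.0151 (4 pairs) and those of other pairs at -0.214 to 0.219 (12 pairs). The replicate block was therefore an alternative. The closest replicates differed by 4.7 in chi-square per degree of freedom, so each library was counted as 1 sample. By the methods each pup was cultured separately, and p-values measure the spread between these cultures. Each untreated Ncf1-/- library, however, held Y-linked RNA at 105 to 116 CPM together with Xist at 72.3 to 87.8 CPM. Whether each library came from a single pup was not tested, so the p-values may not measure a spread between pups.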

Additional observations from a re-analysis of the deposited data

How the results depend on the processing

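In both comparisons with WT the 9 calls among the 10 genes were within 1.5 times under each alternative, 9 when any 1 library was left out, and no gene reversed. Over all genes the treatment comparison called 3923 by edgeR, 5906 with library totals, 6354 on log2(TPM + 1), 6519 on log2(TPM + 0.1), 2149 in the study's test, and 2550, 2320 and 2294 without treated replicate 2, untreated replicate 1 and untreated replicate 2. The study's test called 4329 against 8978 between Ncf1-/- and WT and 5592 against 9801 between treated Ncf1-/- and WT. The rescaling gave, for treatment, Ncf1-/- against WT and treated against WT, 951 higher and 2237 lower, 3730 and 4872, and 3530 and 6336. Between treated and untreated Ncf1-/- NSCs the count of 2 became 1 at an adjusted p under 0.01 and by limma on log2(TPM + 1) rescaled without the 100 most abundant genes, and 0 under a minimum log2 fold change of 1 and in the study's test on TPM; leaving out 1 library gave 1 to 2. With the replicate block the count was 2 (Id4 -0.82, adjusted p = 0.002; Bmp7 0.42, adjusted p = 0.0294, edgeR) and Id2 turned to -0.03; the block changed no call. Id4 ranged from -1.23 to -0.72 over its 24 alternatives. Bmp7 was not called with library totals (0.21) or after the rescaling (0.31). Bmpr1b lost its call against untreated WT in the study's test on TPM, and both receptors did under a minimum log2 fold change of 1. The cause of these moves was not tested.

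In the treatment comparison the direction of 8 of the 10 genes turned under at least 1 alternative, that of the called Bmp7 included. With library totals, Bmpr1a was -0.20, Id2 -0.25, Id3 -0.12 and Nog -0.05. On log2(TPM + 1), Bmp2 was -0.01, Bmp7 -0.04, Bmpr1a -0.35, Id1 -0.17, Id2 -0.44, Id3 -0.33 and Nog -0.04. On log2(TPM + 0.1), Bmp2 was -0.08, Bmp7 -0.05, Bmpr1a -0.36, Id1 -0.19, Id2 -0.47, Id3 -0.33 and Nog -0.21. In the study's test on TPM, Bmp2 was -0.09, Bmp7 -0.01, Bmpr1a -0.37, Id1 -0.19, Id2 -0.46, Id3 -0.32 and Nog -0.21. Id2 was -0.04 when genes needed a mean of 5 CPM, -0.02 with only the 2 groups compared and -0.10 after rescaling. Leaving out 1 library gave -0.10 to 0.02 for Bmpr1b, -0.04 to 0.04 for Id2 and -0.14 to 0.45 for Nog. Nog has no value when genes needed a mean of 5 CPM.

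For the 8 wider lists, settings added after seeing the data (without WT replicate 3 or 4, library totals, log2(TPM + 1)) kept 80 of 96 counts within 1.5 times. Counts of 5 to 26 per library for Bmp2, Bmp4 and Nog in Ncf1-/- NSCs limit what can be said of Igfbp2 on these genes.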
